A study of Mus musculus with 44 samples.

Results

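Mrc1, Stab1, Pf4 and F13a1 are 4 of the 3613 genes listed in a single-cell RNA sequencing table of 44 mouse cells, and were followed cell by cell for the shape of their distributions and for their joint expression. They were taken by name as genes known from resident macrophages, and all 4 were listed. The cells came from neonatal calvarial cell cultures of C57BL/6J mice, were sorted as CD45+ F4/80+ CD41- and were labelled primary osteomacs, the macrophages that line bone. The 20 cells of plate 7, here called with-MK cells, came from cultures kept for 16 h with 50000 megakaryocytes, and the 24 cells of plate 3, here called without-MK cells, from cultures kept for 16 h with none added. The titles of the without-MK cells also name megakaryocytes, against their treatment field, which was used here. No animal or culture is named for a cell, so each group counts as 1 sample, and plate, capture and treatment cannot be told apart. No test between the groups was therefore made. Intervals cover the counting of reads, or of cells within a plate, and not the spread between cultures or animals.

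Genes of the labelled cell type were abundant in with-MK cells and near 0 in without-MK cells. A list of 20 general macrophage genes, all of them listed, summed to between 8619 and 71962 CPM (reads per 1000000 library reads) in with-MK cells, and its median was 29648 CPM. Its range in without-MK cells was 0 to 361 CPM, and the median 11.4 CPM. Stromal genes, of which 10 of 20 were listed, summed to between 3.88 and 195.6 CPM in with-MK cells, against 5208 to 102368 CPM in without-MK cells, so these ranges do not overlap. The marker sums move with every difference between the groups below, and their part in it was not tested. With-MK cells held 69181 to 1212604 library reads (median 834834.5) and without-MK cells 270537 to 714465 (median 527930). With-MK cells 11 and 16 stand apart as the shallowest, at 69181 and 71585 reads, and cell 16 had 245233 CPM of Malat1, a nuclear RNA.

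Resident macrophages of many tissues take up debris, glycoproteins and modified lipoproteins through cell surface scavenger and lectin receptors. Mrc1 encodes the mannose receptor CD206, a lectin that internalises mannosylated glycoproteins and collagen fragments. Stab1 encodes stabilin-1, a scavenger receptor of macrophages and sinusoidal endothelium. Pf4 encodes platelet factor 4 (CXCL4), a chemokine stored in the alpha granules of megakaryocytes and platelets that some tissue macrophages also make. F13a1 encodes the A subunit of coagulation factor XIII, a transglutaminase that crosslinks fibrin and matrix proteins and is known from platelets, monocytes and macrophages. Because Pf4 and F13a1 are also platelet genes, their joint expression with the receptors in each cell is of interest in cells from a culture with megakaryocytes.

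The genes lie on 4 chromosomes of GRCm38, the mm10 build, in the GENCODE annotation. Mrc1 spans chr2:14229392-14332057 on the plus strand and Pf4 spans chr5:90772435-90773383 on the plus strand. Stab1 spans chr14:31139013-31168641 and F13a1 spans chr13:36867178-37050244, both on the minus strand. Promoter windows of 300 bases, from 250 before to 50 after the start, were taken from RefSeq (GRCm38.p6), which held all 4 genes and has a pair of starts for F13a1. They are shown because 2 letter patterns differ between the genes there: AGGAAGT, of the type bound by ETS factors such as the myeloid factor PU.1, and AGATAA, of the type bound by GATA factors, which act in megakaryocytes. Both strands were searched, the patterns do not overlap each other, and capitals mark the matches. The windows are given 5′ to 3′ on the strand of the gene, where ACTTCCT is AGGAAGT on the opposite strand.
Pf4, chr5:90772185-90772484, plus strand: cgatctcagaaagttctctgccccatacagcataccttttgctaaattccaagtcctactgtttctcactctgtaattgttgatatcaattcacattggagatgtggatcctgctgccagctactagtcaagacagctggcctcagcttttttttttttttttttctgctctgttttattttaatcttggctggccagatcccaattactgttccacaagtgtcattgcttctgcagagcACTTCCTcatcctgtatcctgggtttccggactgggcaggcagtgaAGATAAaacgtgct
Mrc1, chr2:14229164-14229463, plus strand: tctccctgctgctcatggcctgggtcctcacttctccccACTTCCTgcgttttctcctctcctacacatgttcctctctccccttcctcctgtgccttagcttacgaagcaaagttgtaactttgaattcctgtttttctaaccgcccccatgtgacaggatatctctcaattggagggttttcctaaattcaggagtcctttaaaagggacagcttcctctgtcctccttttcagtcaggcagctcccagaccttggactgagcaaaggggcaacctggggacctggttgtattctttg
Stab1, chr14:31168592-31168891, minus strand: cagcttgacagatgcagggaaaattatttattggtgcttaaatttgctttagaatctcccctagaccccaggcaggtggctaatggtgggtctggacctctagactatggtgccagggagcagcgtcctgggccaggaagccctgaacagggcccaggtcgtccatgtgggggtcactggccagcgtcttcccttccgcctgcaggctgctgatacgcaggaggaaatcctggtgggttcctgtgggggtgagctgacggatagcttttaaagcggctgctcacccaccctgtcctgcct
F13a1, chr13:37049164-37049463, minus strand: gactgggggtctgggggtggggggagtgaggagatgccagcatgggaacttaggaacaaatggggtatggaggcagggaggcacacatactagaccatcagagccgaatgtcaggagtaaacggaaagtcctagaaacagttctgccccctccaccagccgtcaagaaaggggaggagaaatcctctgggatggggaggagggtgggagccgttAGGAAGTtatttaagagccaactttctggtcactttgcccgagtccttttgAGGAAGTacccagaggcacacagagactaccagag
Pf4 held AGGAAGT on the opposite strand, 10 bases before its start, and AGATAA 36 bases after it. Mrc1 held AGGAAGT on the opposite strand, 211 bases before its start. The F13a1 window held 2 matches to AGGAAGT, 36 bases before the start and 15 bases after it, while the window of its other start, chr13:37050195-37050494, held neither pattern. Stab1 held neither. Of 32851 promoter windows in the table, 9.35% hold AGGAAGT and 11.2% hold AGATAA, so matches are common and describe letters only.

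In with-MK cells the 4 genes were read in 14 to 16 of 20 cells at levels that ran over 95.5-fold to 3612-fold among the cells with a read, while all without-MK cells together gave 0 to 52 reads of each. Pooled over the cells of a group, the level was 251-fold to 7273-fold higher in with-MK cells for Mrc1, Pf4 and F13a1, and for Stab1 at least 862-fold higher. All 4 passed 100-fold, as did 3.97% of 3271 genes, in a comparison in which the general macrophage and stromal sums also differ. The values by gene follow, the endocytic receptors first.

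Mrc1 had a lowest value of 0, a median of 424 CPM and a highest of 4666 CPM in with-MK cells, against 0, 0 and 75.1 CPM in without-MK cells. The groups overlap, because 4 with-MK cells had no Mrc1 read. Its reads were 16426 in with-MK cells (95% exact Poisson interval 16176 to 16679), against 52 in without-MK cells (39 to 68), which is 1050 CPM and 4.19 CPM, a ratio of 251 (191 to 336). One without-MK cell, number 16, held 49 of the 52 reads. That cell had a general macrophage sum of 15.3 CPM and a stromal sum of 13758 CPM, so its Mrc1 reads did not come with macrophage genes. Without the top cell of each group, the log2 ratio was 11.71, against 7.97 with all cells. On the log2(CPM + 1) scale, Mrc1 averaged 6.63 ± 4.71 in with-MK cells (SD over 20 cells), against 0.51 ± 1.39 in without-MK cells (SD over 24 cells).

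Stab1 was read in with-MK cells alone. Its lowest, median and highest values in with-MK cells were 0, 24.0 and 2190 CPM, and no without-MK cell had a read. The 3259 reads in with-MK cells (3148 to 3373) are 208 CPM, and a floor of 3 reads over the without-MK group is 0.242 CPM. A single cell, with-MK cell 7, held 58.7% of the Stab1 reads. The next highest was cell 20, at 513 CPM. Without the top cell of each group, the lower bound of the log2 ratio was 8.50, against 9.75 with all cells. Mean log2(CPM + 1) was 4.26 ± 3.64 in with-MK cells.

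In with-MK cells the lowest, median and highest values of Pf4 were 0, 183 and 8749 CPM, against 0, 0 and 4.55 CPM in without-MK cells. Pooled reads were 26490 (26172 to 26811) in with-MK cells, against 6 (2 to 13) in without-MK cells, or 1694 and 0.483 CPM, a ratio of 3505 (1610 to 9551). Cell 7, which also led Stab1, held 28.8% of the Pf4 reads, and cell 13, the highest for Mrc1, came next at 7545 CPM. Mean log2(CPM + 1) was 7.21 ± 4.54 in with-MK cells, against 0.37 ± 0.77 in without-MK cells.

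F13a1 ran from 0 through a median of 207 CPM to 3086 CPM in with-MK cells. Among without-MK cells, 1 read in cell 10, or 2.27 CPM, was all there was. Pooled, this was 9161 reads (8974 to 9351) or 586 CPM in with-MK cells, against 0.0805 CPM in without-MK cells, a ratio of 7273 (1305 to 287283). Its highest cell, with-MK cell 17, was neither the highest for Pf4 nor for the receptors and held 28.8% of the reads. Without the top cell of each group, which leaves no without-MK read, the log2 ratio was at least 10.78, against 12.83 with all cells. Mean log2(CPM + 1) was 6.28 ± 4.13 in with-MK cells, against 0.07 ± 0.35 in without-MK cells.

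**Figure D1:**
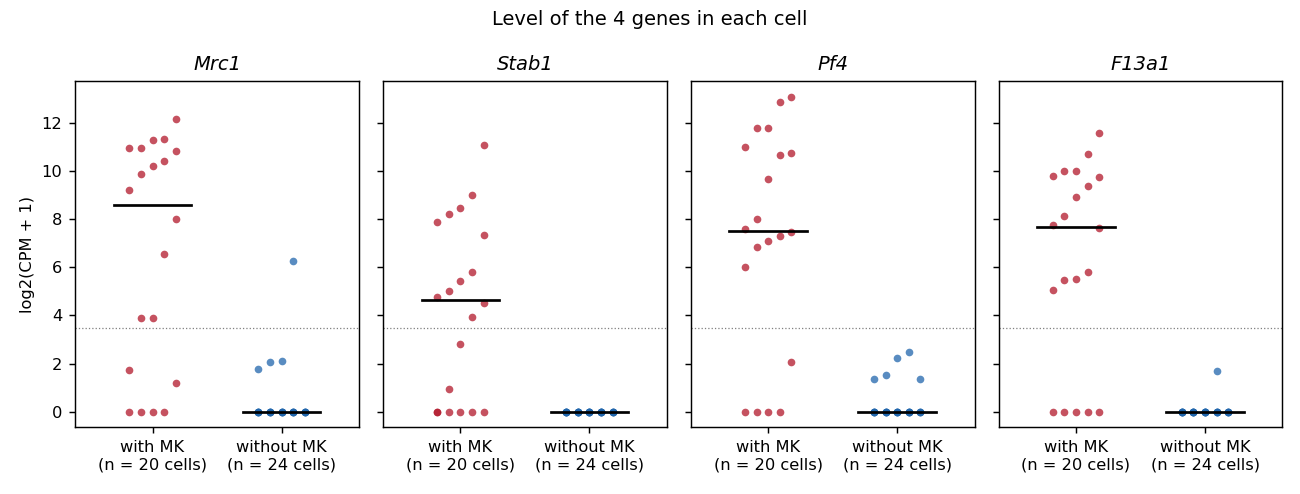
Level of Mrc1, Stab1, Pf4 and F13a1 in each cell (points), as CPM on a log axis after adding 1, for with-MK cells (20) on the left and without-MK cells (24) on the right of each panel. Black bars are medians and the dotted line is 10 CPM; with-MK cells reach 2190 to 8749 CPM, and 1 without-MK cell lies above the line, for Mrc1.

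CPM does not allow for gene length, so the order of the 4 genes was taken per kilobase of annotated exon. Pooled over with-MK cells, Pf4 had 2349 CPM per kb, Mrc1 165, F13a1 86.9 and Stab1 20.3. The order by median cell was the same, at 254, 66.6, 30.7 and 2.33 CPM per kb. The per-cell ranges of all 4 genes start at 0 and overlap, so neighbours in this order do not differ beyond the spread over cells.

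A read of Mrc1 was found in 16 of 20 with-MK cells (80.0%, exact Clopper-Pearson interval 56.3 to 94.3), against 4 of 24 without-MK cells (16.7%, 4.74 to 37.4). These intervals take the cells of a plate as independent draws and describe that plate alone. For Stab1 it was 14 of 20 (70.0%, 45.7 to 88.1) in with-MK cells, against 0 of 24 in without-MK cells. The upper limit of the without-MK share was 14.2% by the same interval and 12.5% by a limit of 3 counts. Pf4 was read in 16 of 20 with-MK cells (80.0%), against 5 of 24 without-MK cells (20.8%, 7.13 to 42.2). F13a1 was read in 15 of 20 with-MK cells (75%, 50.9 to 91.3), against 1 of 24 without-MK cells (4.17%, 0.105 to 21.1). After thinning each cell to 250000 reads, which left 18 with-MK and 24 without-MK cells, the shares in with-MK cells were 72.2%, 72.2%, 77.8% and 77.8% for Mrc1, Stab1, Pf4 and F13a1. In thinned without-MK cells they were 8.33%, 0%, 12.5% and 0% in the same order. The without-MK shares come from cells with almost no general macrophage RNA and, apart from 49 Mrc1 reads in cell 16 and 2 Pf4 reads in cell 10, from 1 read a cell. A level of 10 CPM was therefore used below to count a cell as having a gene. At that level the members were found in 14, 12, 15 and 15 with-MK cells, against 1, 0, 0 and 0 without-MK cells.

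Among the 20 with-MK cells, F13a1 was either not read or above 10 CPM. It had no read in 5 cells and at least 32.3 CPM in the other 15, with no cell between. Among those 15 cells the level spanned 95.5-fold, against 3612-fold for Mrc1, 2417-fold for Stab1 and 2793-fold for Pf4 over their cells with a read. The gap between 0 and the lowest F13a1 cell was 5.06 on the log2(CPM + 1) scale. Of 3027 genes read in at least 5 of these cells, 3.87% had a largest gap of that size or more. The size of a gap that starts at 0 depends on the pseudocount, and gaps were not recomputed with 10 CPM.

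Pf4 split in a similar place. Its largest gap, 3.98, lay between 3.13 CPM in cell 2 and 64.3 CPM in cell 19, with 5 cells below and 15 above, and 10.1% of genes had as large a gap. The 5 cells below the Pf4 gap were 1, 2, 6, 9 and 16, whereas the 5 with no F13a1 read were 3, 4, 6, 16 and 19. The low cells of the 2 genes therefore had cells 6 and 16 in common.

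Mrc1 was high or low with some cells between. It was at 0 in 4 cells, above 0 but under 10 CPM in 2, from 10 to under 100 CPM in 3, and at 100 CPM or more in 11, of which 8 had at least 1000 CPM. The largest gap, 2.67, ran from 14.0 to 94.4 CPM with 8 cells below and 12 above, and 38.4% of genes had as large a gap. The value of 14.0 CPM is 1 read in the shallow cell 16.

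Stab1 was graded. It was at 0 in 6 cells, under 10 CPM in 2, from 10 to under 100 CPM in 6 and at 100 CPM or more in 6. Its largest gap, 2.09, was the one below its single highest cell, and 63.3% of genes had a larger or equal gap.

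By a summary of shape, the members did not stand out from other genes. The bimodality coefficient, which joins skewness and kurtosis and is 0.556 for a uniform distribution, was 0.618 for Mrc1, 0.446 for Stab1, 0.508 for Pf4 and 0.572 for F13a1. That is above the uniform value for 2 of 4 members, against 63.9% of the 3027 genes, whose median was 0.598. With a pseudocount of 10 CPM the F13a1 coefficient was 0.491, under the uniform value. Levels had little relation to depth: Spearman correlations with library reads over the 20 cells were −0.06 for Mrc1, −0.07 for Stab1, 0.08 for Pf4 and 0.18 for F13a1.

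Joint expression was common but uneven. At 10 CPM or more, 10 of 20 with-MK cells had all 4 genes, 2 had 3 of them, 3 had 2, 4 had 1, and cell 6 had none. No without-MK cell had more than 1. The 10 cells with all 4 were cells 7, 8, 10, 11, 13, 14, 15, 17, 18 and 20, where cell 11 is shallow and its Stab1 value of 14.5 CPM is 1 read. At 100 CPM or more, cells 13, 17, 18 and 20 had all 4.

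Among the cells with all 4, the balance of the genes differed widely. Cell 7 had the highest Stab1 and Pf4 levels of all cells, at 2190 and 8749 CPM, and one of the lower F13a1 levels, at 44.7 CPM. Cell 17 had the highest F13a1 level, 3086 CPM, with 593, 294 and 818 CPM of Mrc1, Stab1 and Pf4. Cell 14 had 2083 CPM of Pf4 with 13.7 of Mrc1. High Pf4 thus came with high or low F13a1, and once with low Mrc1.

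Cells with some of the 4 genes lacked different ones. Cells 3 and 4 had 1379 and 2522 CPM of Mrc1 with 175 and 190 CPM of Pf4 and no F13a1 read. Cells 1, 2 and 9 had 666, 860 and 1658 CPM of F13a1, with at most 2.28 CPM of Mrc1 and at most 3.13 CPM of Pf4. Cell 2 had 233 CPM of Stab1 as well, so Stab1 was found there without the other receptor. Cell 12 had 134.4 CPM of Pf4 and 32.3 of F13a1 with 1 read of Mrc1, and cell 5 had 2020, 1719 and 281 CPM of Mrc1, Pf4 and F13a1 with no Stab1 read.

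The 5 cells with 1 member or none at 10 CPM had general macrophage sums of 8619 to 41977 CPM. Cells 16, 19, 6 and 1, at 8619, 12931, 18543 and 21131 CPM, had the lowest sums of all with-MK cells. Cell 9 had 41977 CPM, against a with-MK median of 29648 CPM. The relation of these sums to the members was not tested. Cell 6 had no read of any of the 4 among 707594. Of the sort genes, it had 390 CPM of Adgre1 (which encodes F4/80) but 2.83 CPM of Ptprc (which encodes CD45). The with-MK median of Ptprc was 250 CPM. Low sort-gene RNA was not particular to cell 6. Cell 7, the highest for Stab1 and Pf4, had 2.29 CPM of Ptprc and no Adgre1 read, and cells 16 and 19 had no Adgre1 read. Cell 6 also had 20287 CPM of Cd74, the invariant chain of antigen presentation. Cell 19 had 64.3 CPM of Pf4 and otherwise 1 read of Stab1. Cell 16, with 1 read of Mrc1, is shallow, so the absence of the other 3 is weakly determined there.

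**Figure D2:**
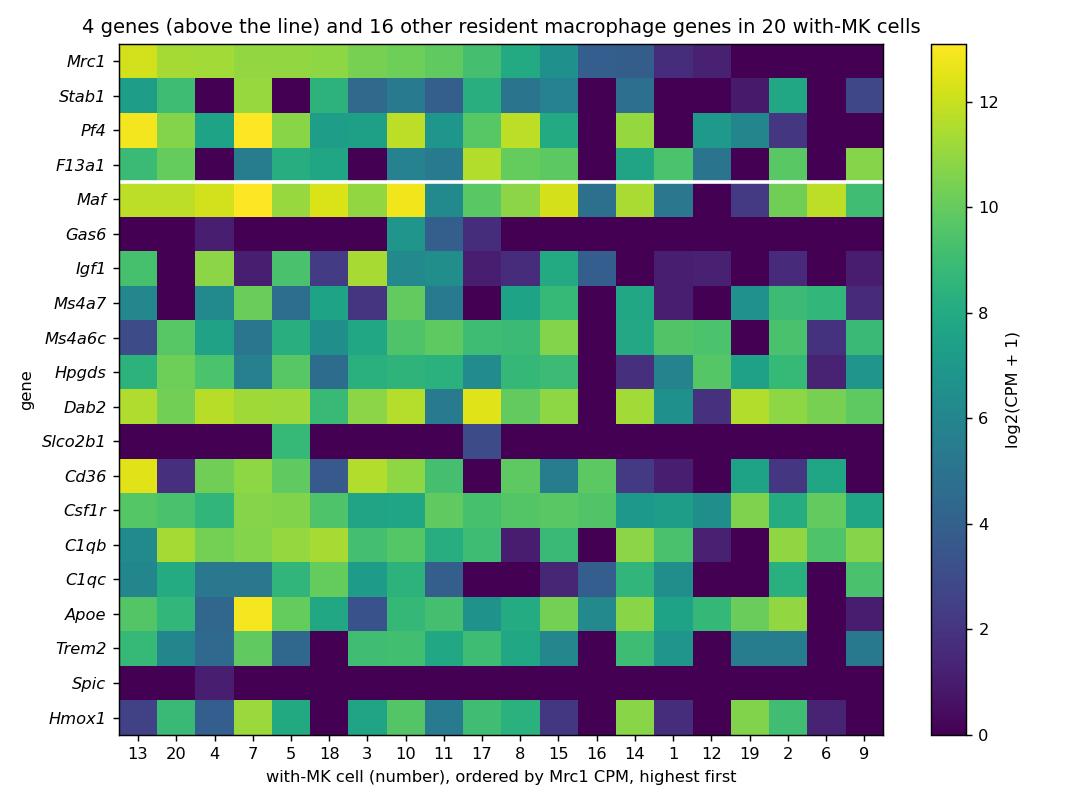
Level per with-MK cell, as log2(CPM + 1), of the 4 genes (above the line) and 16 other genes of the resident macrophage list (below it), with the 20 cells from the highest Mrc1 level at the left to the lowest at the right. Pf4 is high over most of the cells with high Mrc1, whereas F13a1 is high in cells at both ends, as in cells 1, 2 and 9 with 666 to 1658 CPM.

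Pf4 ranked with Mrc1 more closely than any other 2 members ranked together. Spearman correlations over the 20 with-MK cells are given as descriptions; these cells share 1 plate, and ties at 0 enter every value. For Mrc1 and Pf4 the correlation was 0.70, with a range of 0.65 to 0.76 when each cell was left out in turn. For Stab1 and Pf4 it was 0.55 (0.48 to 0.65), for Stab1 and F13a1 0.51 (0.46 to 0.59), and for Mrc1 and Stab1 0.40 (0.32 to 0.54). For Pf4 and F13a1 it was 0.22 (0.14 to 0.37), and 0.088 without both shallow cells and 0.105 in thinned cells. For Mrc1 and F13a1 it was 0.04 (−0.06 to 0.17).

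Against the 2203 other genes read in at least 10 with-MK cells, Pf4 was the 6th closest to Mrc1 and Mrc1 the 6th closest to Pf4. Genes at 0.5 or more made up 2.13% of all for Mrc1, 2.81% for Stab1, 4.36% for Pf4 and 3.59% for F13a1. For Stab1 and Pf4, 1.91% of genes were as close to Stab1 as Pf4 was, and 2.77% as close to Pf4 as Stab1 was. For Pf4 and F13a1, 25.8% of genes were as close to Pf4 as F13a1 was, so F13a1 sat among the bulk of genes in relation to Pf4. In relation to Mrc1 it lay near the middle, with 47.1% of genes as close.

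**Figure D3:**
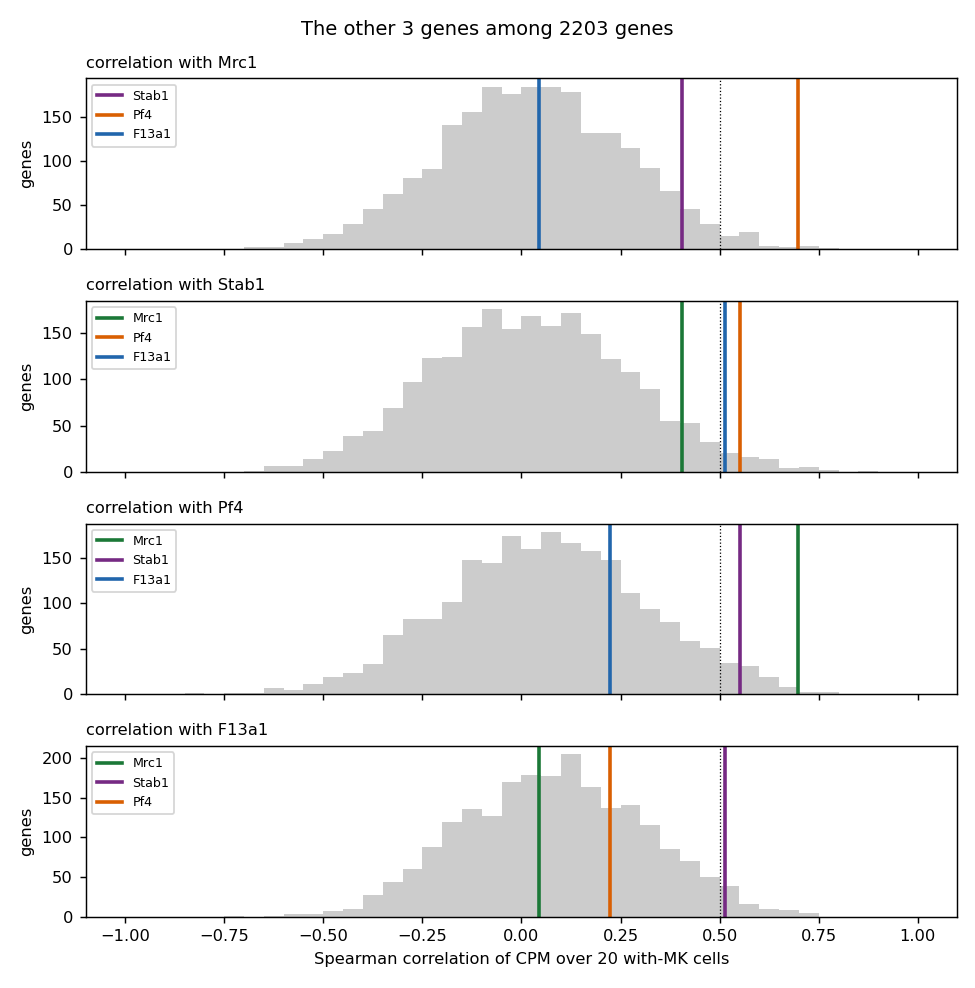
Spearman correlation over 20 with-MK cells of each of the 4 genes with all other genes read in at least 10 of these cells (grey), with the other 3 members marked and a dotted line at 0.5. Pf4 at 0.70 lies in the upper tail for Mrc1 and Mrc1 in that of Pf4, whereas F13a1 at 0.04 and 0.22 lies within the bulk of both.

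The correlation of Pf4 with Mrc1 was lower among the cells that had both genes. At 10 CPM, 13 cells had both, 1 had Mrc1 alone (cell 16, by its single read), 2 had Pf4 alone and 4 had neither. At 100 CPM, 11 cells had both, none had Mrc1 alone, 3 had Pf4 alone and 6 had neither. Over the 14 cells with a read of both, the correlation was 0.31. Likewise it was 0.35 over the 13 cells with a read of both Stab1 and Pf4, and 0.05 over the 12 with a read of both Stab1 and F13a1. F13a1 and Pf4 were found together in 12 cells at 10 CPM, with 3 cells for each alone and 2 with neither, and over the 13 cells with both the correlation was 0.03.

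**Figure D4:**
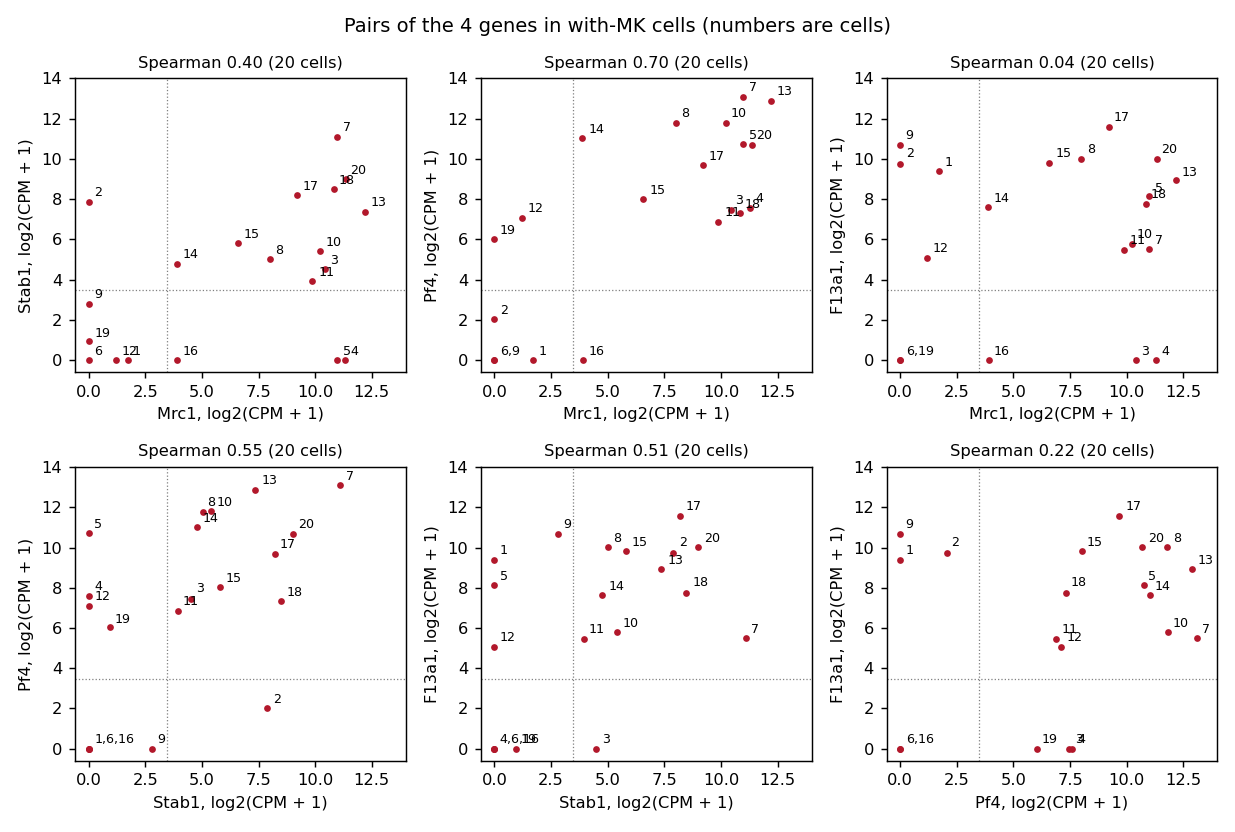
Levels of the 6 pairs of genes in the 20 with-MK cells, each point a cell, as CPM on log axes after adding 1, with dotted lines at 10 CPM. For Mrc1 and Pf4, 13 cells lie above both lines, whereas for Mrc1 and F13a1 3 cells lie above the Mrc1 line alone and 4 above the F13a1 line alone.

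The wider list of resident macrophage genes was set against Pf4 next. Of its 40 names, 21 were listed, and Cd163, Lyve1, Folr2 and Timd4 were not among the genes listed. Of the 17 that are not members, 13 were at least 2-fold higher in with-MK cells by pooled CPM and 0 were at least 2-fold lower, beside 24.4% and 28.3% of all 3271 genes. Of the 14 read in at least 10 with-MK cells, the median correlation with Pf4 was 0.32. Over all genes the median was 0.06, with quartiles of −0.11 and 0.23. The correlation was positive for 13 of the 14, but most genes are positive with Pf4, so this count alone says little. The medians were 0.25 for Mrc1, 0.24 for Stab1 and 0.06 for F13a1, beside 0.03, 0.02 and 0.09 over all genes.

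Pf4 reached 0.5 with 4 of the 14, beside 4.36% of all genes: Trem2, a lipid-sensing receptor of macrophages, at 0.62, the transcription factor gene Maf at 0.59, the haem-degrading enzyme gene Hmox1 at 0.58, and the endocytic adaptor gene Dab2 at 0.56. Mrc1 reached it with Maf at 0.57, with the scavenger receptor gene Cd36 at 0.56 and with the growth factor gene Igf1 at 0.53. Stab1 reached it with Trem2 at 0.52 and Maf at 0.51. Maf was therefore the gene of this list that reached 0.5 with Mrc1, Stab1 and Pf4, and its correlation with F13a1 was 0.05. F13a1 reached it with Ms4a6c at 0.54 and lay at −0.47 with Cd36.

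Megakaryocyte and platelet genes were read beside them, since Pf4 and F13a1 belong to that list as well. None of 11 defining markers, among them Itga2b (which encodes CD41), Ppbp, Gp9 and Vwf, is among the genes listed, so megakaryocyte RNA could not be checked by them. The list's 7 other listed genes, Plek, Thbs1, Fli1, Cxcr4, Cd9, Fermt3 and Srgn, are also made by other cells. Pf4 had a median correlation of 0.00 with them, beside 0.06 over all genes, and lay between −0.29 with Srgn and 0.29 with Cxcr4. It reached 0.5 with 0 of 7, beside 4.36% of all genes, a share that 7 genes are too few to tell from 0. The median of 0.00 became 0.22 by Pearson correlation on log2(CPM + 1), −0.028 without the shallow cells and −0.045 in thinned cells. The resident macrophage median was 0.32, 0.29 and 0.31 there. F13a1 had a median of 0.31 with the same genes, beside 0.09 over all genes, and its median was not recomputed under the alternatives. It reached 0.5 with 1 of 7, beside 3.59% of all genes, where 7 genes are again few. That gene was Thbs1, which encodes the matrix and platelet protein thrombospondin-1, at 0.67. Mrc1 and Stab1 had medians of −0.09 and 0.19. Of these 7 genes, 4 were at least 2-fold higher and 1, Thbs1, at least 2-fold lower in with-MK cells. Over all 3271 genes the shares were 24.4% and 28.3%.

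The endocytic receptor list lay closest to Pf4 among the lists with 8 or more genes to compare. It also holds the clathrin gene Cltc and the adaptor gene Dab2, which are not receptors. Msr1, Cd36, Cd68 and Dab2 also stand in the resident or general macrophage list, so these lists are not separate. For 8 genes the median correlation was 0.46 with Pf4, 0.30 with Stab1, 0.26 with Mrc1 and 0.08 with F13a1. Cd68, a lysosomal glycoprotein gene, was at 0.64 with Stab1 and 0.54 with Pf4, and Lrp1, a large endocytic receptor gene, at 0.53 with Stab1. Pooled CPM was at least 2-fold higher in with-MK cells for 8 of the 9 listed genes that are not members, all but Cltc. That stands beside 24.4% of all 3271 genes.

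Chemokine genes followed Pf4 unevenly. Over 6 of them the median correlation with Pf4 was 0.24, beside 0.06 over all genes. Of the 6, 2 reached 0.5, beside 4.36% of all genes. They were Ccl7, which draws monocytes, at 0.78 and Ccl2, its close relative, at 0.56. Ccl3, Ccl4, Ccl9 and Cxcl2 lay between −0.07 and 0.26. The medians with Mrc1, Stab1 and F13a1 were 0.15, 0.20 and 0.20. Of 9 listed chemokine genes, 7 were at least 2-fold higher in with-MK cells and 1 at least 2-fold lower. The shares over all 3271 genes were 24.4% and 28.3%.

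General macrophage genes were all at least 2-fold higher in with-MK cells, 20 of 20, beside 24.4% of all 3271 genes. Within those cells their median correlation was 0.10 with Mrc1, 0.28 with Stab1, 0.20 with Pf4 and 0.15 with F13a1. Ctss, a lysosomal protease gene, was at 0.66 with Pf4, 0.54 with Stab1 and 0.51 with Mrc1. C3ar1, a complement receptor gene, was at 0.62 with Stab1, 0.52 with Pf4 and 0.50 with Mrc1, while Lyz2, the macrophage lysozyme, was at 0.58 and Itgam, the integrin CD11b, at 0.53 with F13a1. Other genes of the list went the other way. Lcp1 lay at −0.47 with Pf4 and −0.42 with Mrc1, and Mpeg1 at −0.22 and −0.30. With Pf4, 16 of the 20 were above 0, beside a median of 0.06 over all genes. The genes behind the sort, Ptprc for CD45 and Adgre1 for F4/80, lay between −0.31 and 0.22 with all 4.

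F13a1 was also set against transglutaminase and coagulation genes. Over 4 such genes its median correlation was 0.30, with Thbs1 at 0.67 and Anxa2, which encodes the plasminogen-binding annexin A2, at 0.51. Thbs1 also stands in the megakaryocyte and platelet list, so its value is the one given above. Of the 7 others listed, 0 were at least 2-fold higher and 6 at least 2-fold lower in with-MK cells. Over all 3271 genes the shares were 24.4% and 28.3%. F13a1 itself was higher, in a comparison in which the general macrophage and stromal sums also differ.

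Lists of other macrophage states and cell types had few genes to compare. Over 5 inflammatory macrophage genes the medians were −0.14 for Mrc1, −0.09 for Stab1, 0.07 for Pf4 and −0.14 for F13a1, and over 5 monocyte genes −0.19, 0.00, −0.06 and 0.13 in that order. Of 5 listed in each, 4 inflammatory and 4 monocyte genes were at least 2-fold higher in with-MK cells, beside 24.4% of all 3271 genes. The 3 osteoclast genes had medians of 0.30, 0.24, 0.43 and −0.08, the 2 neutrophil genes −0.04, 0.29, 0.08 and 0.40, and the 4 stromal genes 0.10, −0.09, −0.14 and −0.15. The one interleukin 4 response gene that is no member, Il1rn, lay at 0.08, 0.39, 0.37 and 0.40. Among osteoclast, neutrophil and stromal genes, 2 of 3, 3 of 3 and 0 of 10 were at least 2-fold higher in with-MK cells. All 10 stromal genes were at least 2-fold lower, beside 28.3% of all genes.

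**Figure D5:**
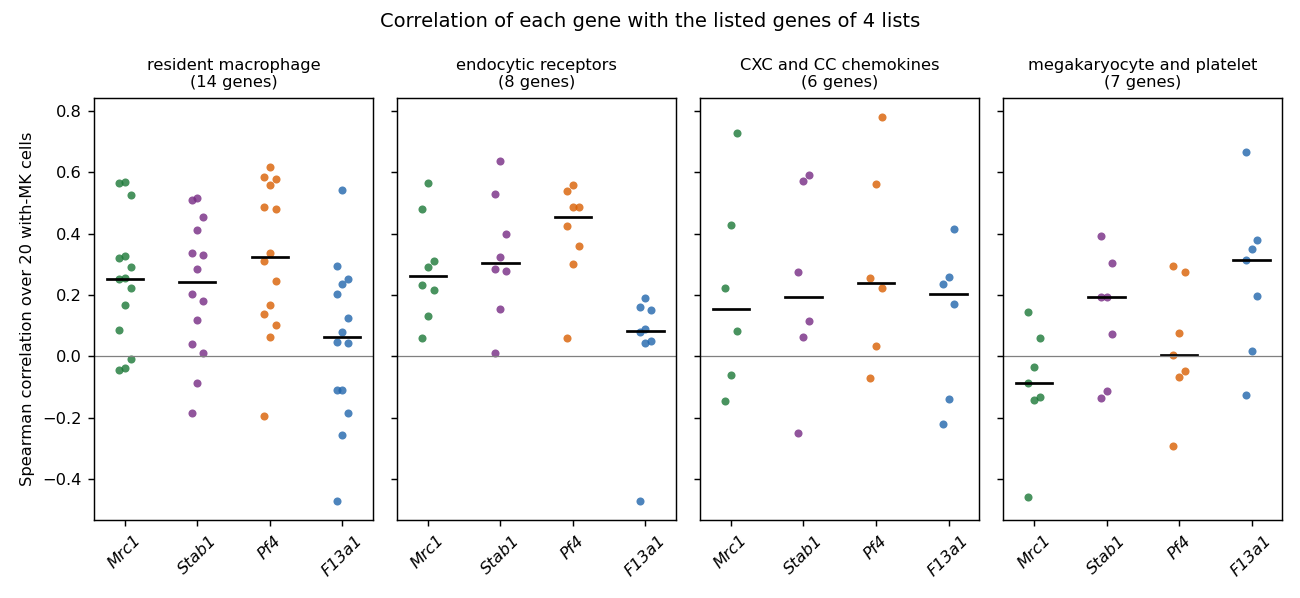
Spearman correlation over the 20 with-MK cells of Mrc1, Stab1, Pf4 and F13a1 with each gene of the lists (points), with the median of each list as a black bar. For Pf4 the resident macrophage median is 0.32 and the megakaryocyte and platelet median 0.00, and for F13a1 they are 0.06 and 0.31. By Pearson correlation on log2(CPM + 1) the Pf4 medians are 0.32 and 0.22, and the F13a1 medians were not recomputed.

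The genes with the most similar ranks give the nearest company of each member over the 20 with-MK cells. For Mrc1 they were Tmem106a (0.76), Nisch (0.74), Ccl7 (0.73), Myo5a (0.73) and Cd300a (0.70), where Cd300a encodes an inhibitory receptor of myeloid cells and Myo5a a vesicle motor. For Pf4 they were Ccl7 (0.78), Ndufs7 (0.76), Ctsb (0.71), Myo5a (0.71) and Bbip1 (0.70), where Ctsb encodes the lysosomal protease cathepsin B. Ccl7 and Myo5a stand in both groups of 5. Ccl7 had a median of 29.7 CPM and a highest value of 12908 CPM in with-MK cells.

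Stab1 and F13a1 had other neighbours. Those of Stab1 were Vps29 (0.85), a subunit of the retromer that recycles endosomal receptors, Fabp5 (0.78), a fatty acid binding protein, the inhibitory Fc receptor gene Fcgr2b (0.75), the complement receptor gene C5ar1 (0.74) and the hexokinase gene Hk3 (0.72). Those of F13a1 were S100a13 (0.73), the phosphatase genes Ppp1ca (0.71) and Ppm1h (0.71), Sel1l (0.71), which acts in the disposal of misfolded proteins, and Mrpl4 (0.70), a mitochondrial ribosome gene. The correlations of these 5 F13a1 neighbours with Pf4 lay between −0.06 and 0.16. Emb and Alcam, which encode adhesion proteins, lay between −0.21 and 0.21 and between −0.03 and 0.41 with the 4 members.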

How the data were processed

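One table of 3613 genes and 44 cells was used; each deposited value is a signal with the form of RPKM, made by the authors, and no column was left out. Its form (gene reads × 1e+09, over the cell's library reads times a whole number per gene) was worked out from the values. Library reads came from the most frequent value of each cell. The smallest whole divisor per gene then made all 99807 values above 0 whole reads (tolerance 0.0001), partly by construction for genes with few values; the 4 members have 14 to 21 such values each. CPM are those reads per 1000000 library reads. On simulated data the reads of 300 of 300 genes were recovered exactly. There the most frequent value of each cell was set to 1e+09 over its library reads. The step that takes library reads from that value was therefore built in and not tested. Seurat and mm10 are named per the submitters' processing notes; no aligner, counter or annotation version is given in the sources used here. Protocols in the labels name a Fluidigm C1 chip, SMART-Seq cDNA without molecular identifiers, Nextera XT and 150 b paired-end reads.

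The plan assumed counts; recovered reads were used instead. No cell was removed, and no doublet caller or clustering was run on 44 cells. Pooled ratios have 95% exact intervals. Correlations are Spearman's over with-MK cells, for genes read in at least 10 of them (5 for shape). Named genes are the members, the 5 closest to each (predicted, mitochondrial and ribosomal protein genes passed over) and genes of 13 lists; 1 listed gene is not reported here by name. Members and lists were chosen with earlier results of these data known. Alternatives were another read total, a mean over cells, pseudocounts, thresholds, gene filters, Pearson correlation, thinning, and leaving out cells. Python 3.11.15, pandas 2.3.3, numpy 2.4.6, scipy 1.17.1 and matplotlib 3.10.9 were used.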

Additional observations from a re-analysis of the deposited data

How the results depend on the processing

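Of 108 values recomputed under an alternative, 2 changed sign and 19 moved, that is beyond the counting interval of a ratio or share (by over 2-fold for the Stab1 bound), by over 0.2 for a correlation, across the uniform value for a bimodality coefficient, or by over 1.5 times for a count of cells. The other 87 stayed within these limits, which are wide for F13a1, whose log2 ratio of 12.83 was at least 10.78 without the top cells. Leaving out the top cell of each group moved the log2 ratio of Mrc1 to 11.71, against 7.97, and the bound for Stab1 to 8.50, against 9.75. In cells thinned to 250000 reads the bound was 8.74 for Stab1 and 10.15 for F13a1, against 12.83, where without-MK cells had 0 reads and the floor of 3 took their place. In cells with a read of both genes, an alternative chosen after seeing the data, the correlation of Pf4 was 0.31 with Mrc1, against 0.70, and 0.35 with Stab1, against 0.55. Cells with all 4 genes numbered 4 at 100 CPM, against 10 at 10 CPM. The median correlation of Pf4 with megakaryocyte and platelet genes, 0.00, was 0.22 by Pearson correlation on log2(CPM + 1), −0.028 without the shallow with-MK cells and −0.045 in thinned cells. A filter to keep with-MK cells with a Ptprc or Adgre1 read and without-MK cells under 10 CPM of both removed 0 of the 44 cells, so it changed no value. Lowering the gene filter from 10 to 5 cells added no gene to either list compared with Pf4, so those medians could not move. Values under both filters are counted among the 87. No paired analysis was possible because the results come from no test and the replicate numbers only name cells. Depth limits the absence of a gene in with-MK cells 11 and 16, where 1 read is over 10 CPM.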
